A study of Mus musculus with 12 samples.

Results

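The genes described here are 42 mouse genes tied to the transcription factor ATF4 and to the supply of amino acids. They were taken by gene symbol from a list of ATF4 pathway regulators, stress effectors, amino acid and one-carbon enzymes, amino acid carriers and cytosolic aminoacyl-tRNA synthetases. All 42 were found among the 15720 gene identifiers of the expression table. No measured value entered the choice of an individual gene, although the list was drawn up with earlier results of these data known. Of the 42, 41 passed the filter on low expression (a mean over all libraries of at least 0.5 FPKM, fragments per kilobase of transcript, scaled to library size). Stc2, which encodes a secreted glycoprotein, stayed below it.

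RNA was sequenced from EMS404 cells, a hepatic stellate cell line of C57Bl6 mouse liver that was immortalised with SV40 and expresses human TLR4. Stellate cells are the collagen-producing cells of the liver, and TGFb is the cytokine classically used to activate them. Cells received either a scrambled siRNA or an siRNA against Bmal1, the circadian transcription factor listed in the table under its older symbol Arntl. At 48 h after transfection they were given vehicle or TGFb at 10 ng/mL for a further 24 h. This gave 4 groups of 3 libraries, 12 in all: scrambled siRNA with vehicle, scrambled siRNA with TGFb, Bmal1 siRNA with vehicle and Bmal1 siRNA with TGFb. All 4 groups thus come from 1 immortalised line, all were transfected, and the siRNA arm lowered Bmal1 transcript without removing it. Arntl averaged 5.18 FPKM with vehicle and 10.7 FPKM with TGFb after scrambled siRNA, against 3.79 and 4.35 FPKM after Bmal1 siRNA. By these means the drop was larger under TGFb than under vehicle, so the siRNA comparisons rest on unequal knockdown.

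ATF4 is the effector of the integrated stress response. Kinases that sense uncharged tRNA, unfolded protein in the endoplasmic reticulum, viral RNA or heme shortage phosphorylate the initiation factor eIF2alpha, which lowers general translation while favouring translation of the Atf4 mRNA. ATF4 then binds C/EBP-ATF elements in genes that make, import and charge amino acids onto tRNA, and in genes of regulators that feed back on the response. In fibroblasts and stellate cells the pathway is best known for supplying glycine and proline, the abundant residues of collagen.

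The core of the C/EBP-ATF element was searched for near the start sites of the 42 genes, because it is the sequence these genes are known for. RefSeq promoter windows of 300 bases (250 before to 50 after the start site, build GRCm38.p6) were given for 35 of the 42. The entries lacking were Cth, Slc7a5, Slc1a5, Wars, Nars, Lars and Cars. The motif TGATGNAA was read on both strands, and the reverse strand match is TTNCATCA. It occurred in 13 of the 35 genes (37.1%) and in 4.51% of all 27025 gene symbols with a window. The 7 stretches below belong to genes whose values are given further on. Capitals mark the motif match, and each sequence is written 5′ to 3′ on the strand of its gene.
Fgf21, chr7:45615602-45615649, minus strand: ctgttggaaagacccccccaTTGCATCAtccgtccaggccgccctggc
Nupr1, chr7:126625563-126625590, minus strand: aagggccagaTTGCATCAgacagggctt
Slc7a11, chr3:50443633-50443699, minus strand: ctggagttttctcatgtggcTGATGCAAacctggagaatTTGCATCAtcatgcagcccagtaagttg
Pycr1, chr11:120643824-120643871, minus strand: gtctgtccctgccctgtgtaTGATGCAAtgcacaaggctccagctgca
Chac1, chr2:119351029-119351076, plus strand: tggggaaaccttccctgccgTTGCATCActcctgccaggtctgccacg
Asns, chr6:7693215-7693242, minus strand: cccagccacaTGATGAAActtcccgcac
Gars, chr6:55037951-55037998, plus strand: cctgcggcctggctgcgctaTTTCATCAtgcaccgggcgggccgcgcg
The Slc7a11 window held 2 matches in opposite orientation, with first bases 66 and 47 bases before the start site. Fgf21, Nupr1, Slc7a11 and Chac1 carry the form TTGCATCA or its complement TGATGCAA, as does Pycr1. In Asns and Gars the variable base differs, which gives TGATGAAA and TTTCATCA. The stretches of Nupr1 and Asns lie in annotated exons, and the other 5 lie outside them. The other genes with a match were Trib3, Aars, Tars, Iars, Yars and Vldlr, and Aars also held 2. The E-box CACGTG, the motif that BMAL1 binds with its partner CLOCK, was counted in the same windows. It was found in 7 of the 35 genes (20%) and in 8.09% of all symbols. Those genes were Fgf21, Aldh18a1, Aars, Tars, Iars, Nupr1 and Xpot. For both motifs, all symbols include genes that did not pass the expression filter here, and no share among the tested genes was taken. A match describes the sequence only, since no binding was measured here.

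**Figure D1:**
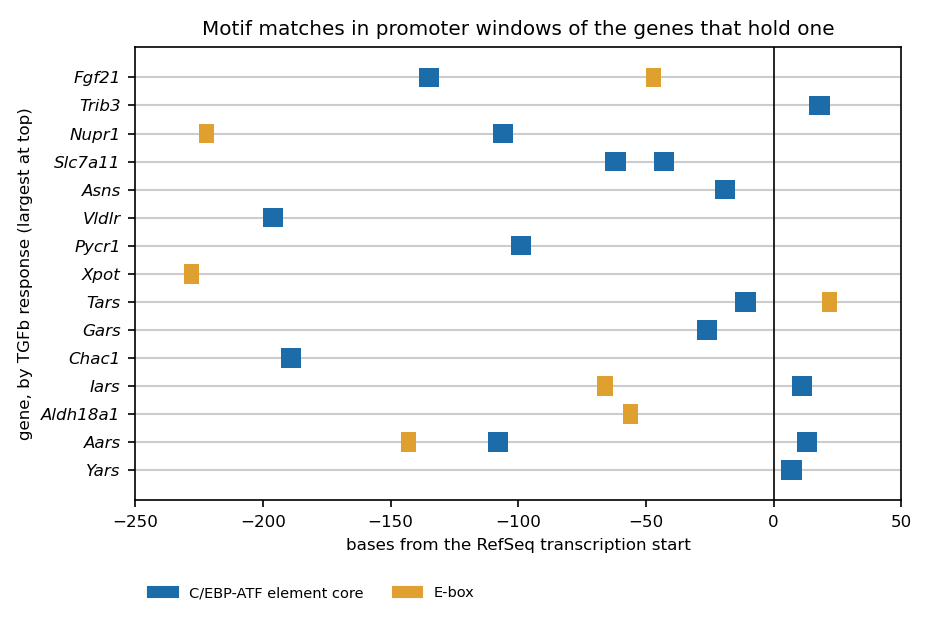
Position of motif matches in the 300-base promoter windows, in bases from the annotated start site (x axis), with 1 line per gene that holds a match (y axis). Genes are ordered by TGFb response, largest at the top, blue boxes mark the C/EBP-ATF core TGATGNAA and orange boxes the E-box CACGTG, on either strand. Slc7a11 and Aars show 2 core matches each, and the matches of both motifs are spread over the window.

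The libraries were first compared as wholes. Deposited FPKM values summed to 445472 to 483957 per library, with 13673 to 13975 genes above 0. How many reads lie behind a value was not stated, so its counting error is unknown. Log-scale profiles within a group correlated at 0.991 to 0.998 across genes, which are not independent replicates. The second library of Bmal1 siRNA with TGFb stood apart: on the first principal component it lay at -5.13, against 13 and 8.40 for the other 2 of its group, -17.8 to -15.4 for scrambled vehicle and 27.2 to 29.9 for scrambled TGFb. The second library of scrambled siRNA with TGFb had the highest summed level of 7 interferon-induced genes, 287 FPKM against 50.8 and 106 in its group and 21.9 to 52.9 in the 9 others. Of 9 stellate and mesenchymal marker genes, 6 were at 1 FPKM or more, among them Col1a1, Col1a2, Acta2 and Pdgfrb. Des averaged under 1 FPKM, and no entry of the expression table was matched to Lrat or Reln. Summed leukocyte markers reached at most 0.17 FPKM, endothelial markers 0.28 FPKM and hepatocyte markers 3.77 FPKM. The leukocyte and hepatocyte sums each cover only 3 of 6 listed genes. No entry was matched to Ptprc, Adgre1, Cd3e, Alb, Ttr and Serpina1a. Of 4 tested cholangiocyte and epithelial markers, limma called Spp1 and Sox9 higher and Krt19 and Krt7 lower with TGFb after scrambled siRNA. The 5 listed, whose total is mostly Spp1, summed to 74.4 to 89.3 FPKM in the 6 vehicle libraries, 207 to 222 FPKM in scrambled siRNA with TGFb, and 187, 100.4 and 165 FPKM in Bmal1 siRNA with TGFb. The part of these genes in the results was not tested. In bulk RNA a smaller number of cells with high levels and a lower level per cell cannot be told apart.

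TGFb after scrambled siRNA raised nearly the whole list. Of 41 genes tested with limma on log2(FPKM + 1), 37 were higher and 1 was lower at a Benjamini-Hochberg adjusted p under 0.05. Among all 11208 genes tested, 16.4% were called higher and 29.1% lower, 45.5% in all. The median log2 difference was 0.52 over the 41 genes and -0.05 over all genes. Rescaling the libraries by medians of ratios gave 39 higher and 1 lower, with 21.8% of all genes called higher, and moved the share of higher among all calls from 36.1% to 48.7%. Scaling to equal totals gave 45.6%. In 38 of the 41 genes the 3 TGFb libraries all exceeded the 3 vehicle libraries, a pattern seen in 20.3% of all genes tested, and in 1 gene they all lay below, a pattern seen in 34.7%. Together the 42 genes made up 0.717% to 0.721% of the FPKM total in the scrambled vehicle libraries and 1.01% to 1.05% in the scrambled TGFb libraries. No label states that replicates came from separate cultures, although the series text calls them biological, so these p-values measure a spread between samples that may be partly technical.

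**Figure D2:**
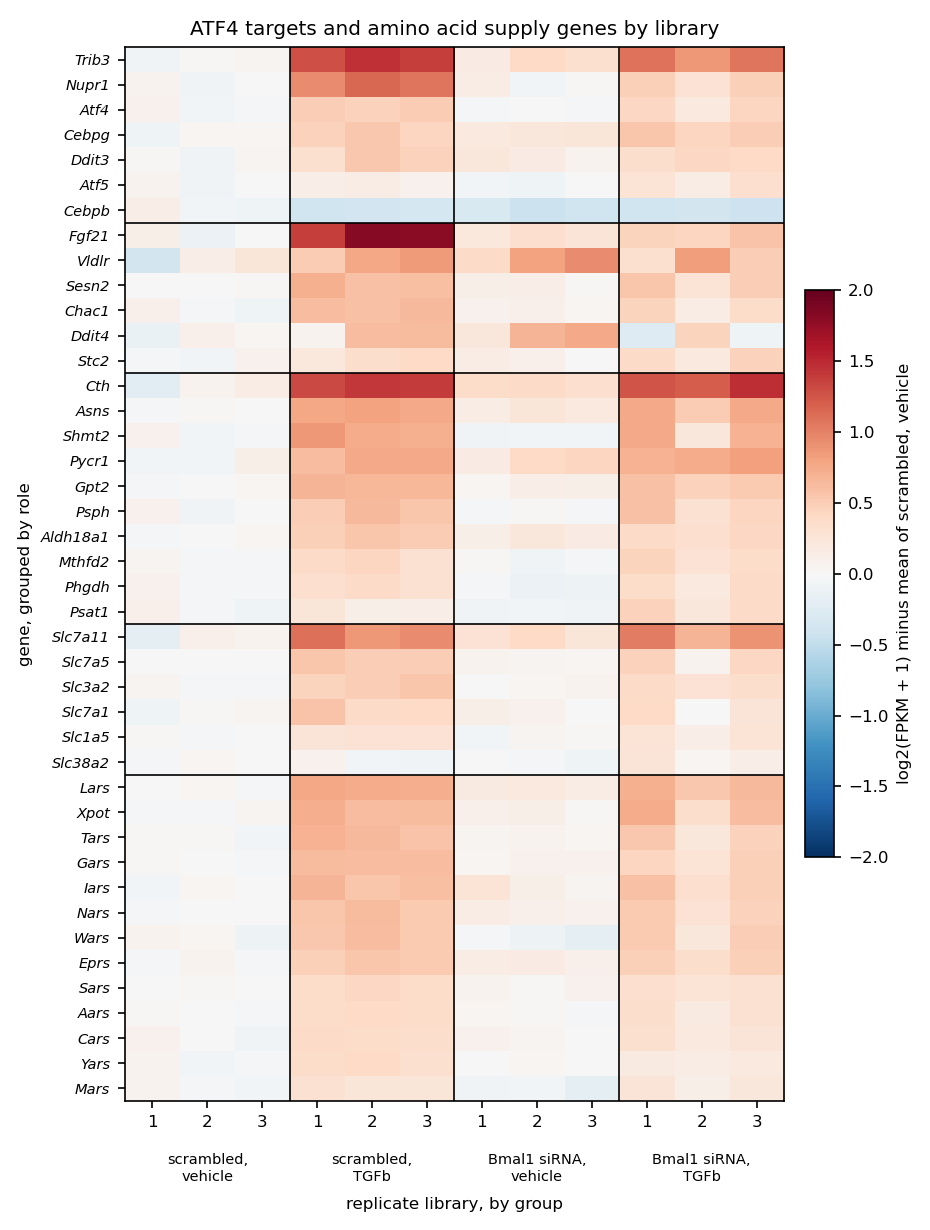
Log2(FPKM + 1) of each gene in each of the 12 libraries, as the difference from that gene's mean in the 3 scrambled vehicle libraries, with genes in rows grouped by role and libraries in columns. The color scale runs from -2 to 2. The 3 scrambled TGFb columns are higher than the vehicle columns for nearly all rows, with Cebpb and Slc38a2 the clearest exceptions, and the second Bmal1 siRNA with TGFb library is paler than its 2 replicates.

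Among the regulators, Atf4 itself was the most abundant transcript of the list. Its level was 338, 308 and 314 FPKM in the scrambled vehicle libraries and 449, 439.8 and 456 FPKM in the scrambled TGFb libraries. After Bmal1 siRNA it was 316, 319.6 and 313 FPKM with vehicle and 426, 367 and 429.8 FPKM with TGFb. Under both siRNAs every TGFb library lay above every vehicle library. The log2 rise was 0.49 (SE 0.060, limma adjusted p = 2.32e-05) after scrambled siRNA. These are mRNA levels, while ATF4 is controlled to a large extent at translation, which was not measured.

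Trib3, a pseudokinase that ATF4 induces and that restrains it, rose more. It was at 34.3, 36.8 and 37.5 FPKM in scrambled vehicle and at 90.0, 101 and 95.7 FPKM in scrambled TGFb libraries. After Bmal1 siRNA the vehicle libraries stood at 40.7, 48.2 and 45.6 FPKM and the TGFb libraries at 78.0, 66.7 and 77.1 FPKM. The 4 groups did not overlap, with scrambled vehicle lowest and scrambled TGFb highest. The log2 rise after scrambled siRNA was 1.38 (SE 0.074, limma adjusted p = 2.44e-08).

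Nupr1, a small stress-induced chromatin protein, was at 69.1, 63.0 and 65.7 FPKM in scrambled vehicle and 128, 148 and 139.6 FPKM in scrambled TGFb libraries. In Bmal1 siRNA cells it was at 73.2, 63.7 and 66.9 FPKM with vehicle and 92.2, 81.1 and 92.4 FPKM with TGFb. Vehicle libraries of both siRNAs overlapped, and the Bmal1 siRNA TGFb libraries lay between them and the scrambled TGFb libraries. The rise after scrambled siRNA was 1.06 (SE 0.070, limma adjusted p = 1.21e-07).

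Cebpb was the only tested gene of the list called lower with TGFb. It encodes a bZIP factor that can pair with ATF4 and that is also part of inflammatory and adipogenic programs. Its scrambled vehicle libraries were at 312, 272 and 267 FPKM, and every other library of the study was at 209 to 229.9 FPKM. The scrambled TGFb values were 214, 217 and 220.4 FPKM, the Bmal1 siRNA vehicle values 229.9, 209 and 215 FPKM, and the Bmal1 siRNA TGFb values 214, 219 and 213 FPKM. Only the scrambled vehicle group stood apart, above the other 3. The log2 difference was -0.38 (SE 0.058, limma adjusted p = 0.000148). About 20.7% of the annotated Cebpb exon bases are shared with Tmem189, and the labels do not say whether counting used strand. In all, 10 of the 42 genes share annotated exon bases with another gene, 7 of them with a protein-coding one, and their values are less certain for that reason. Next to Cebpb the largest shares were 15.1% for Aars, 10.9% for Ddit3 and 10.4% for Psph.

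Of the other regulators, Cebpg, a C/EBP partner of ATF4, rose by 0.48 and Ddit3, which encodes the stress factor CHOP, rose by 0.44 (limma adjusted p = 1.63e-05 and 7.99e-05). Ddit3 shares 10.9% of its exon bases with other annotated genes, among them its neighbour Mars. Atf5, a close relative of Atf4, averaged 139 FPKM with vehicle and 152 FPKM with TGFb, a log2 difference of 0.12 that did not pass (adjusted p = 0.0796).

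Among the stress effectors and secreted factors, Fgf21, a hormone of fasting and amino acid shortage, had the largest log2 rise of all 41 genes. The scrambled vehicle libraries were at 6.98, 5.78 and 6.45 FPKM and the scrambled TGFb libraries at 18.2, 25.1 and 24.8 FPKM. After Bmal1 siRNA the values were 7.54, 8.32 and 7.88 FPKM with vehicle and 9.07, 8.99 and 9.94 FPKM with TGFb. The scrambled TGFb libraries thus stood alone, and the other 9 fell between 5.78 and 9.94 FPKM. The rise after scrambled siRNA was 1.67 (SE 0.104, limma adjusted p = 7.72e-08).

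Vldlr, a lipoprotein receptor that ATF4 is known to induce, was at 6.37, 9.49 and 10.3 FPKM in scrambled vehicle and 12.6, 15.4 and 16.3 FPKM in scrambled TGFb libraries. After Bmal1 siRNA it was at 11.5, 15.7 and 17.4 FPKM with vehicle and 10.9, 16.1 and 12.5 FPKM with TGFb. The scrambled groups did not overlap, whereas the Bmal1 siRNA groups did. Its rise after scrambled siRNA was 0.71 with a wide error (SE 0.179, limma adjusted p = 0.00549). In all 4 groups replicate 1 was the lowest Vldlr library. The same held for Ddit4 and Pycr1, 3 of 41 genes against 5.66% of all genes tested.

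Sesn2, a leucine sensor upstream of mTORC1, and Chac1, which breaks down glutathione, rose by 0.63 and 0.62 (limma adjusted p = 7.24e-06 and 9.27e-06). Ddit4, which encodes the mTORC1 inhibitor REDD1, was variable. It was at 19.4, 23.0 and 21.9 FPKM in scrambled vehicle, 22.6, 33.4 and 33.8 FPKM in scrambled TGFb, 25.4, 35.0 and 36.8 FPKM in Bmal1 siRNA vehicle, and 17.9, 29.5 and 20.2 FPKM in Bmal1 siRNA TGFb libraries. The groups overlapped under both siRNAs, and the log2 difference of 0.44 after scrambled siRNA did not pass (adjusted p = 0.0704). These Ddit4 values are printed in full although no rule asked for them, a choice made after they were seen. Stc2, left out of the test, was at 0.13 to 0.24 FPKM in scrambled vehicle and 0.36 to 0.54 FPKM in scrambled TGFb libraries.

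All 10 enzymes of amino acid and one-carbon synthesis were called higher. Cth, which makes cysteine from cystathionine, had the largest rise among them. It went from 1.93, 2.59 and 2.78 FPKM in scrambled vehicle to 7.49, 8.09 and 7.99 FPKM in scrambled TGFb libraries, and after Bmal1 siRNA from 3.41, 3.45 and 3.32 FPKM to 7.13, 6.93 and 8.5 FPKM. Vehicle and TGFb libraries of Cth were separate under both siRNAs, and the Bmal1 siRNA vehicle libraries lay above the scrambled vehicle ones. The rise after scrambled siRNA was 1.38 (SE 0.093, limma adjusted p = 1.48e-07), a value that the added constant of 1 makes smaller than the ratio of FPKM means for so low a gene.

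Asns, asparagine synthetase, was at 123, 127 and 124 FPKM in scrambled vehicle and 214, 219 and 211 FPKM in scrambled TGFb libraries. The Bmal1 siRNA libraries were at 139, 148 and 143 FPKM with vehicle and 211, 179 and 211 FPKM with TGFb. Vehicle and TGFb libraries did not overlap under either siRNA. The rise after scrambled siRNA was 0.78 (SE 0.059, limma adjusted p = 3.68e-07).

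The enzymes of the serine and glycine route rose. Phgdh, Psat1 and Psph carry out the steps from 3-phosphoglycerate to serine, and they rose by 0.34, 0.17 and 0.57 (limma adjusted p = 0.000296, 0.0437 and 2.00e-05). The Psat1 call was lost in 9 of 21 alternative settings, 8 of them settings that leave out 1 library, and its adjusted p reached 0.164 without scrambled vehicle replicate 3. Shmt2, the mitochondrial enzyme that turns serine into glycine, was at 249, 226 and 228 FPKM in scrambled vehicle and 428, 392 and 385 FPKM in scrambled TGFb libraries. After Bmal1 siRNA it was at 222, 224 and 225 FPKM with vehicle and 397, 274 and 380.3 FPKM with TGFb, so 1 TGFb library was far below its 2 replicates and still above all vehicle libraries. The rise after scrambled siRNA was 0.77 (SE 0.107, limma adjusted p = 6.15e-05). Mthfd2, the next mitochondrial folate enzyme, rose by 0.38.

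Both enzymes that make proline from glutamate were higher. Pycr1, which performs the last step, was at 59.9, 60.1 and 67.7 FPKM in scrambled vehicle and 96.0, 106 and 106 FPKM in scrambled TGFb libraries. Following Bmal1 siRNA it was at 70.4, 82.3 and 84.8 FPKM with vehicle and 101, 105 and 111 FPKM with TGFb. Its groups did not overlap under either siRNA, and the rise after scrambled siRNA was 0.71 (SE 0.073, limma adjusted p = 5.12e-06). Aldh18a1, which performs the first step, was at 95.8, 98.1 and 101 FPKM in scrambled vehicle and 138, 145 and 140.4 FPKM in scrambled TGFb libraries. With Bmal1 siRNA its vehicle libraries were at 106, 115 and 109.8 FPKM and its TGFb libraries at 129, 125 and 132 FPKM. Its 4 groups followed each other without overlap, in the same order as for Trib3. Aldh18a1 rose by 0.52 after scrambled siRNA (SE 0.043, limma adjusted p = 8.54e-07). Gpt2, the mitochondrial alanine aminotransferase, rose by 0.67.

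Of 6 amino acid carriers, 5 were called higher. Slc7a11, the cystine importer, was the least abundant of the tested genes, at 0.71, 1.07 and 1.04 FPKM in scrambled vehicle and 3.17, 2.52 and 2.71 FPKM in scrambled TGFb libraries. With Bmal1 siRNA it was at 1.37, 1.54 and 1.29 FPKM in vehicle and 2.93, 2.08 and 2.62 FPKM in TGFb libraries. Each TGFb library exceeded each vehicle library of either siRNA. The rise after scrambled siRNA was 0.97 (SE 0.105, limma adjusted p = 7.67e-06), and its promoter window with a pair of C/EBP-ATF cores is shown above.

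Slc7a5, the importer of leucine and other large neutral amino acids, was at 195, 192 and 194 FPKM in scrambled vehicle and 285, 272 and 273 FPKM in scrambled TGFb libraries. After Bmal1 siRNA it was at 202, 202 and 198 FPKM with vehicle and 268, 204 and 258 FPKM with TGFb. Its second Bmal1 siRNA TGFb library was thus barely above the vehicle libraries. Slc3a2, the heavy chain that both of these carriers need at the cell surface, went from 112, 106 and 106 FPKM to 147, 153 and 158 FPKM after scrambled siRNA, and from 107, 111 and 113 FPKM to 142, 133 and 139 FPKM after Bmal1 siRNA. Neither pair of Slc3a2 groups overlapped. The rises after scrambled siRNA were 0.51 for Slc7a5 and 0.50 for Slc3a2 (limma adjusted p = 0.000133 and 2.11e-06). The cationic amino acid carrier Slc7a1 and the glutamine carrier Slc1a5 rose by 0.45 and 0.28. Slc38a2, another glutamine carrier, averaged 133 FPKM with vehicle and 132 FPKM with TGFb (log2 difference -0.01, adjusted p = 0.939).

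All 13 genes of tRNA charging and export were called higher, with log2 rises from 0.26 for Mars to 0.75 for Lars. The synthetases load amino acids onto tRNA in the cytosol, and Xpot carries tRNA out of the nucleus. Lars, which charges leucine, was at 25.8, 26.8 and 25.4 FPKM in scrambled vehicle and 45.2, 44.0 and 43.4 FPKM in scrambled TGFb libraries. With Bmal1 siRNA the levels were 29.6, 29.9 and 28.9 FPKM with vehicle and 43.2, 38.1 and 41.1 FPKM with TGFb. The 4 Lars groups were separate, with Bmal1 siRNA on the inner side at both ends. Xpot rose by 0.66, Tars by 0.64, Gars by 0.62 and Iars by 0.61, and Wars, Nars and Eprs rose by 0.56, 0.57 and 0.52. Sars, Aars, Cars and Yars, for serine, alanine, cysteine and tyrosine, rose by 0.36 to 0.38.

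**Figure D3:**
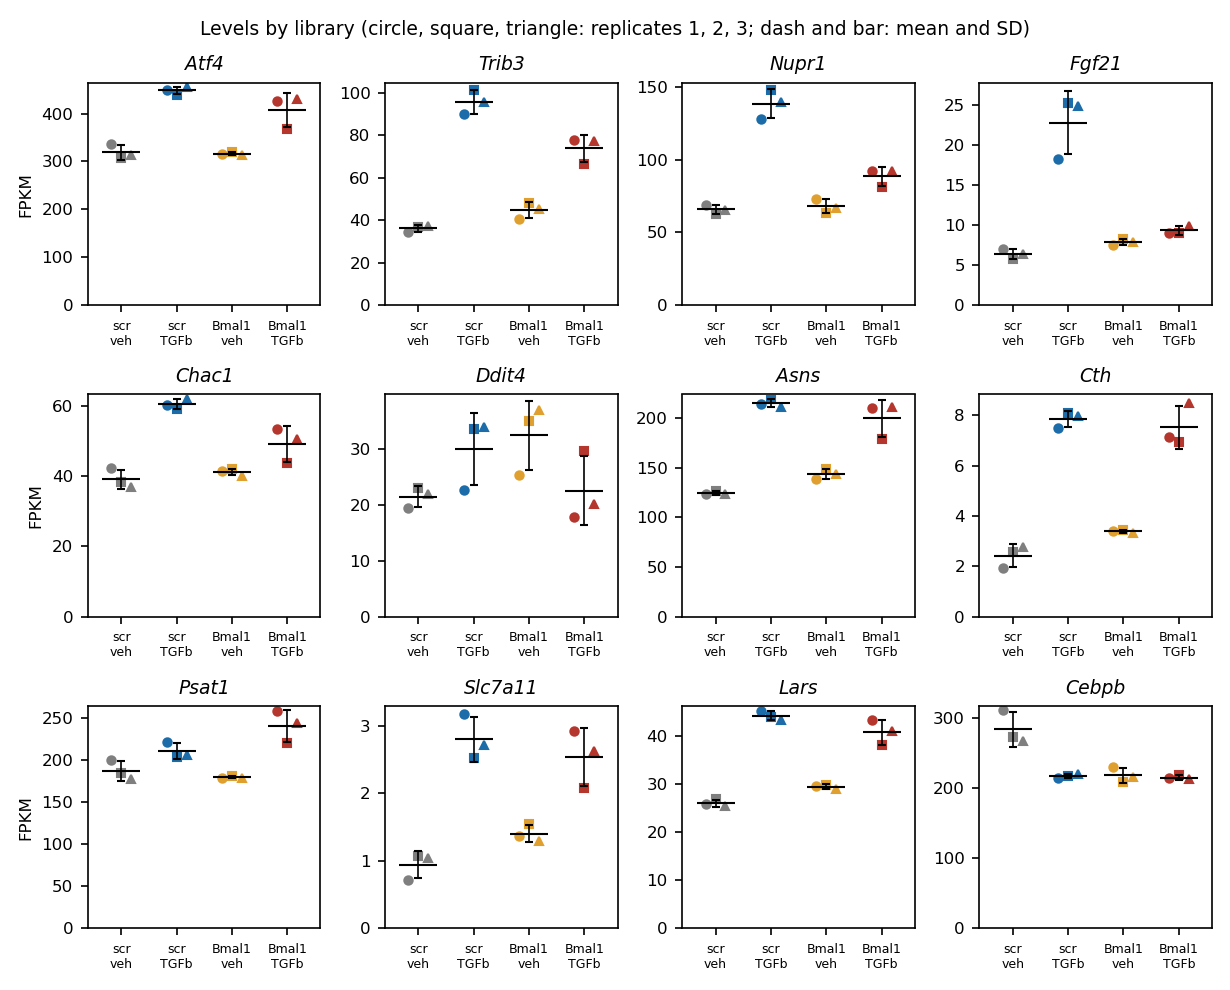
FPKM of selected genes in each library (y axes in FPKM, from 0) by siRNA and treatment group (x axis), with 1 point per library (circle, square and triangle for replicates 1, 2 and 3) and a dash and bar at the group mean and SD. Fgf21 is high only in the 3 scrambled TGFb libraries, Trib3 and Nupr1 take middle values in Bmal1 siRNA with TGFb, and Cebpb is high only in scrambled vehicle.

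Genes with and without the C/EBP-ATF core in their window were described side by side. All 13 genes with a core were called higher with TGFb after scrambled siRNA, with a median log2 rise of 0.71 (range 0.36 to 1.67). Of the 22 genes with a window but no core, 21 were tested, 17 were called higher and 1 lower, and the median was 0.45. The difference between these groups was not tested, since list and pathway were chosen together.

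After Bmal1 siRNA, TGFb still raised most of the list. In limma, 35 of 41 genes were called higher and none lower, where 8.90% of all tested genes were called higher and 10.1% lower, 19.0% in all. In 37 genes all 3 TGFb libraries exceeded all 3 vehicle libraries, and in none were they all lower, against 17.6% and 17.9% of all genes. At an unadjusted p under 0.05, 36 genes were higher and 1, Ddit4, was lower, and 32.7% of all tested genes passed in either direction. The median log2 rise was 0.31, against 0.00 over all genes. Of the 37 genes called higher after scrambled siRNA, 34 were called higher here too. Among all 1841 genes called higher after scrambled siRNA this was true of 37.4%. By role, all 10 synthesis enzymes and all 13 tRNA genes were again called higher, as were 6 of 7 regulators, 4 of 6 carriers and 2 of 5 tested stress effectors.

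The 6 largest rises after Bmal1 siRNA came from 4 roles. Cth rose by 0.95, Trib3 by 0.71 and Shmt2 by 0.63 (limma adjusted p = 4.52e-05, 6.27e-05 and 0.00148). Slc7a11, Wars and Xpot followed at 0.56, 0.52 and 0.49 (adjusted p = 0.00284, 0.000622 and 0.000979), ahead of Asns at 0.47 and Psph at 0.46. Atf5 was called here and not after scrambled siRNA, at a log2 rise of 0.30 (adjusted p = 0.00215), while the difference between its 2 responses did not pass (0.18, adjusted p = 0.145). Fgf21 was not called, at 0.21 (SE 0.104, adjusted p = 0.175). Vldlr and Ddit4 were at -0.16 and -0.52 without passing (adjusted p = 0.578 and 0.0715). The calls of Ddit3, Chac1, Slc7a5 and Yars did not hold under all settings, and the other 31 did in all that were run.

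**Figure D4:**
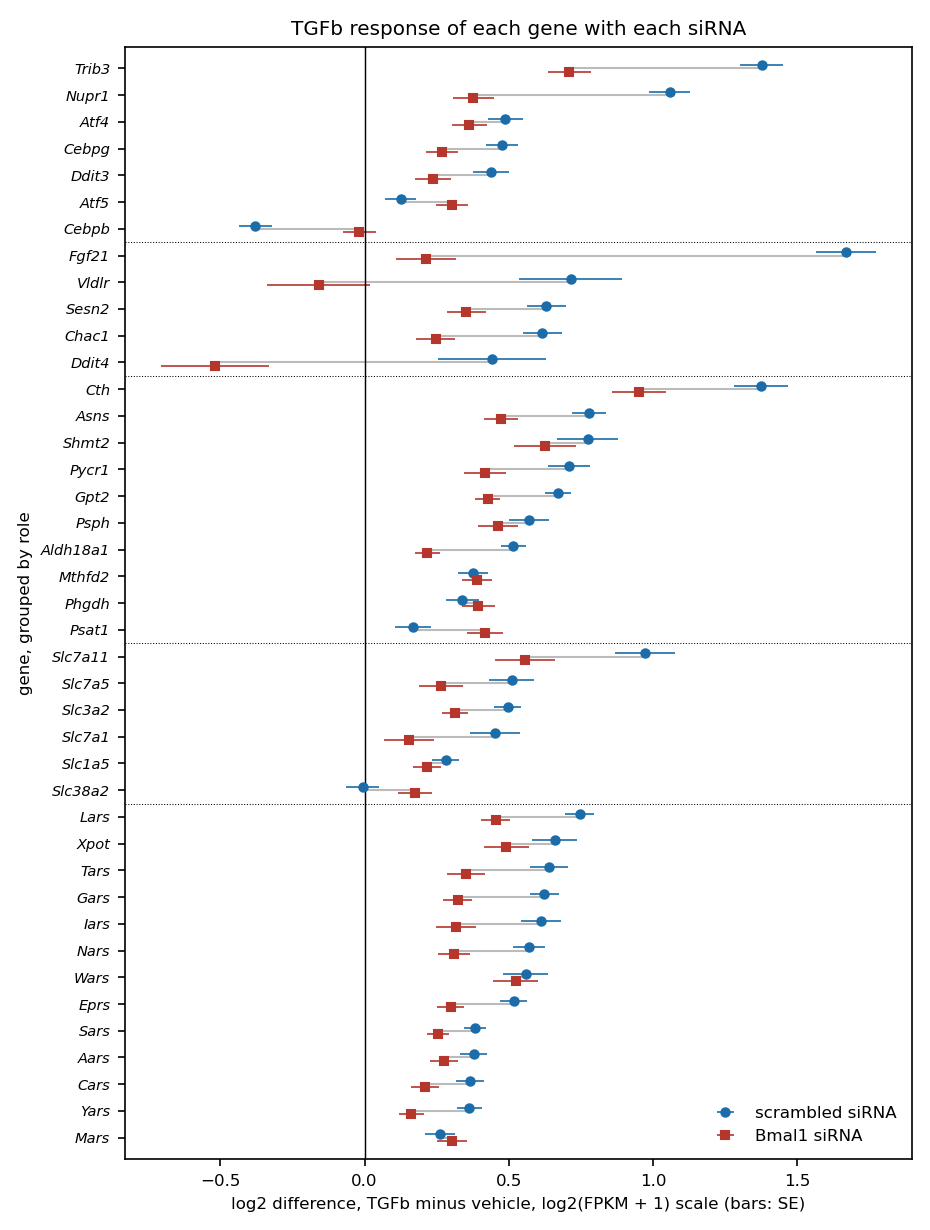
Log2 difference between TGFb and vehicle (x axis, log2(FPKM + 1) scale) for each of the 41 tested genes (y axis, grouped by role), with 1 point and SE bar for scrambled siRNA and 1 for Bmal1 siRNA, joined by a grey line. Nearly all points lie above 0, the Bmal1 siRNA point is usually the smaller of the pair, and the widest gap is that of Fgf21, from 1.67 to 0.21.

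The siRNA itself, compared under vehicle, gave 1 call in 41 genes, against 0.660% of all tested genes, 0.294% higher and 0.366% lower. It was Cebpb, at -0.38 (SE 0.058, limma adjusted p = 0.0253), the gene for which scrambled vehicle stood above the other 3 groups. That call was lost without scrambled vehicle replicate 1 or 3, or without Bmal1 siRNA vehicle replicate 2 or 3, with adjusted p of 0.0848, 0.0626, 0.161 and 0.117. Shifts upward that did not pass were common. In 20 of 41 genes all 3 Bmal1 siRNA vehicle libraries exceeded all 3 scrambled vehicle libraries, and in 3 genes they lay below, against 16.7% and 15.1% of all genes. The largest of these 20 shifts were Vldlr at 0.71 and Ddit4 at 0.56, which did not pass (limma adjusted p = 0.0742 and 0.128). Also among the 20 were Trib3, Cth, Asns, Pycr1, Aldh18a1, Lars, Slc7a11 and Fgf21, at 0.30, 0.36, 0.20, 0.33, 0.16, 0.18, 0.31 and 0.27. None of them passed either (limma adjusted p from 0.058 to 0.167). Without the second Bmal1 siRNA TGFb library, which enters this comparison only through the shared estimate of spread, 9 genes were called. Without Bmal1 siRNA vehicle replicate 1 the count was 4. The share of all genes called in these fits is not given here, so the counts do not single out the list.

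Under TGFb, Bmal1 siRNA was compared with the same scrambled TGFb libraries that served for the TGFb response, so both comparisons share that group. In limma 10 genes were lower and 1 was higher, 11 of 41 in all, while 7.16% of all tested genes were called lower and 23.2% in either direction. The median difference was -0.13, against 0.06 over all genes. Medians of ratios gave 19 genes lower and 0 higher, where 2160 of all 11208 genes tested were called, 1014 of them higher. This scaling moved the share of higher among all calls from 69.1% to 46.9%, and scaling to equal totals moved it to 58.9%. In 19 of 41 genes all 3 Bmal1 siRNA libraries lay below all 3 scrambled libraries, a pattern seen in 11.0% of all genes, and in none did they all lie above, as they did in 28.1% of all genes.

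The largest drops that passed were in the regulators and stress effectors. Ddit4, at -0.40, did not pass (limma adjusted p = 0.135). Fgf21 fell by 1.19 (SE 0.104, limma adjusted p = 7.87e-06), Nupr1 by 0.64 (SE 0.070, adjusted p = 4.75e-05), Trib3 by 0.37 (SE 0.074, adjusted p = 0.00357) and Chac1 by 0.30 (SE 0.068, adjusted p = 0.00822). The synthetases Gars, Tars and Yars fell by 0.23, 0.23 and 0.19, the enzymes Aldh18a1 and Gpt2 by 0.13 and 0.15, and the carrier chain Slc3a2 by 0.15. Psat1 was the 1 gene called higher, at 0.19 (adjusted p = 0.0415), and it was not called under medians of ratios (adjusted p = 0.171). Atf4 differed by -0.14 (SE 0.060), which did not pass (adjusted p = 0.109), although its 3 Bmal1 siRNA libraries all lay below the 3 scrambled ones. Under medians of ratios Atf4 was called lower, at -0.20 (adjusted p = 0.0366), and without both second TGFb libraries it was at -0.08 (adjusted p = 0.379). The calls of Fgf21, Nupr1, Trib3, Chac1 and Gars held in every setting run, and each of the other 6 was lost in at least 1.

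The second Bmal1 siRNA TGFb library stood low in this comparison. It was the lowest of its 3 in 36 of 41 genes, against 36.2% of all genes tested, and in 34 of the 37 genes called higher with TGFb after scrambled siRNA, against 65.6% of all 1841 such genes. The median shift of the 41 genes from the vehicle mean of the same siRNA was 0.37, 0.22 and 0.36 in the 3 Bmal1 siRNA TGFb libraries and 0.51, 0.55 and 0.53 in the 3 scrambled TGFb libraries. Leaving out both second TGFb libraries gave 7 calls, with Fgf21 at -1.09, Nupr1 at -0.53, Trib3 at -0.26, Chac1 at -0.23 and Gars at -0.17 lower, and Psat1 at 0.23 and Atf5 at 0.19 higher. The count was 6 without scrambled TGFb replicate 2, and 7 without scrambled TGFb replicate 3 or Bmal1 siRNA TGFb replicate 3. The share of all genes called in these smaller fits is not given here. Interferon-induced genes were also highest in scrambled TGFb and lay at 28.7 to 32.3 FPKM in Bmal1 siRNA TGFb libraries, and their part in the result was not tested.

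**Figure D5:**
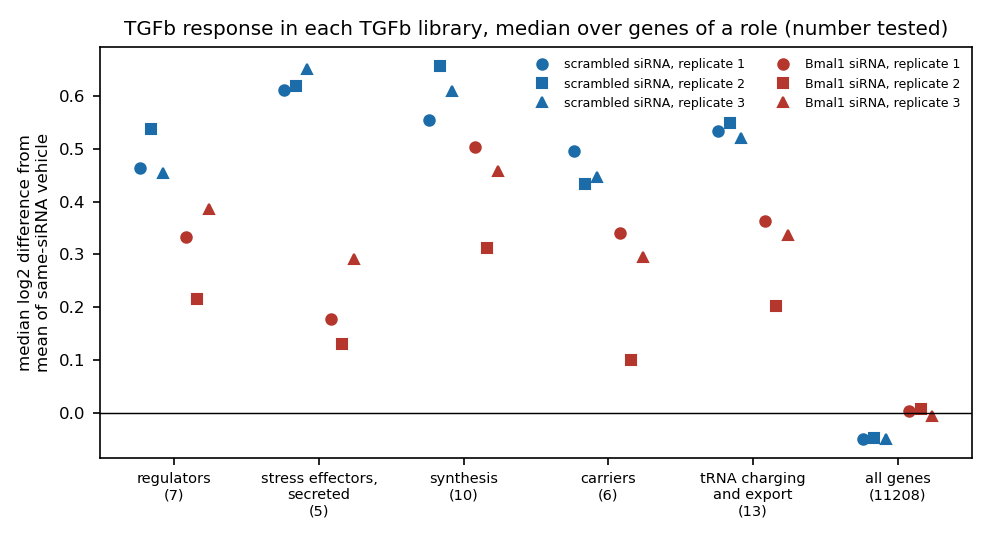
Median over the tested genes of each role (x axis, number of genes in brackets) of log2(FPKM + 1) in each TGFb library minus the mean of the vehicle libraries of the same siRNA (y axis, log2 units), with 1 point per library. In every role the 3 Bmal1 siRNA points lie below the 3 scrambled siRNA points, with replicate 2 lowest, while the medians of all 11208 genes lie between -0.05 and 0.01.

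The difference between both TGFb responses was tested directly as the interaction of siRNA and treatment. In 16 of 41 genes the responses differed, 15 with a smaller and 1 with a larger value after Bmal1 siRNA, while 5.52% of all tested genes were called lower and 8.86% higher, 14.4% in all. The median was -0.22 over the 41 genes and 0.06 over all genes, and it was below 0 in 34 of the 41, against 37.7% of all genes. Medians of ratios gave 22 calls, and scaling to equal totals 19, where 1365 and 1276 of all 11208 genes tested were called. The share of higher among all calls was 61.6% as deposited, 42.3% under medians of ratios and 44.3% under equal totals. Among the 37 genes that TGFb raised after scrambled siRNA, 33 had a smaller log2 rise after Bmal1 siRNA, which is near the 90.6% of all 1841 genes so called. A called interaction toward a smaller rise was found in 14 of these 37 and in 31.6% of those 1841 genes. Both shares are close to those of all genes that rose, so the smaller rise is not particular to these genes. Among the 15 with a smaller value, Ddit4, Vldlr, Cth, Asns, Lars, Aldh18a1 and Eprs differed more between siRNAs under vehicle, where Bmal1 siRNA was higher. None of these vehicle differences passed in limma. The others of the 15 differed more under TGFb, where Bmal1 siRNA was lower.

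Fgf21 had the largest interaction, -1.46 (SE 0.147, limma adjusted p = 7.52e-05), with log2 differences of 1.67 after scrambled and 0.21 after Bmal1 siRNA. Nupr1 and Trib3 were at -0.68 and -0.67 (SE 0.099 and 0.104, adjusted p = 0.000791 and 0.00136), both with a called rise under each siRNA. Aldh18a1 was at -0.30 (SE 0.061, adjusted p = 0.00699). Cebpb was the 1 gene with a larger value, 0.36 (SE 0.082, adjusted p = 0.0119), with log2 differences of -0.38 after scrambled and -0.02 after Bmal1 siRNA. Ddit4 and Vldlr were at -0.96 and -0.87 with wide errors (SE 0.265 and 0.253, adjusted p = 0.0293 and 0.0362), and both had opposite signs under the 2 siRNAs. The Ddit4 call was lost in 8 of 20 alternative settings, and the Vldlr call in several, among them the fit without a filter.

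By role, the interaction was called lower in 4 of 5 tested stress effectors, 2 of 7 regulators, 4 of 10 synthesis enzymes, 5 of 13 tRNA genes and in none of 6 carriers, where 1 carrier, Slc7a11, was at -0.42 without passing (adjusted p = 0.0824). The median interaction was -0.87 for the stress effectors and between -0.21 and -0.20 for the other 4 roles. Of the 13 genes with a C/EBP-ATF core, 8 were called lower (median -0.31), and of the 21 tested genes with a window and no core, 4 were called lower and 1 higher (median -0.15). The count of 16 fell to 10 without scrambled vehicle replicate 1 or 3, to 9 and 8 without scrambled TGFb replicate 2 and 3, and to 7 and 8 without Bmal1 siRNA vehicle replicate 2 and 3. How many of all genes were called in those fits is not given here. The calls of Fgf21, Nupr1, Trib3, Aldh18a1, Gars, Lars and Cebpb held in every setting run.

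Other genes of the pathway were read from lists drawn up beside the 42. Of 14 tested further ATF4-linked genes, TGFb after scrambled siRNA raised 9 and lowered 1, 71.4% in all. Among all tested genes 16.4% were called higher and 29.1% lower, 45.5% in all. The largest rises were Aldh1l2, a mitochondrial folate enzyme, at 1.14, Adm2, a peptide hormone, at 1.02 and Slc1a4, a carrier of serine and alanine, at 0.84. Klhl24 was lower, at -0.58. After Bmal1 siRNA 7 of these genes were higher and 1 lower, where 8.90% of all tested genes were called higher and 10.1% lower. Under vehicle, Bmal1 siRNA raised 2 of them, Aldh1l2 at 0.43 and Mthfd1l, another mitochondrial folate enzyme, at 0.32. In that comparison 0.294% of all tested genes were called higher.

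Upstream, of 15 genes for eIF2alpha kinases, their partners, the phosphatase subunits and eIF2B, 7 were higher and 0 lower with TGFb after scrambled siRNA, with a median of 0.07. That is 46.7% of this list called, near the 45.5% of all tested genes, of which 16.4% were higher and 29.1% lower. Ppp1r15a, the stress-induced phosphatase subunit that reverses eIF2alpha phosphorylation, rose by 0.74, Eif2ak2, the kinase that senses viral RNA, by 0.57 and the eIF2B subunit Eif2b3 by 0.39. Transcripts of the kinases for endoplasmic reticulum stress and uncharged tRNA, Eif2ak3 and Eif2ak4, were at -0.01 and 0.06 without passing, values chosen for print after they were seen. Under TGFb, Bmal1 siRNA lowered Eif2ak2 by a log2 value of -0.55 and Ppp1r15a by one of -0.53, and raised Impact, a regulator of the kinase GCN2, by 0.26. These 3 calls were 20% of the list, where 23.2% of all tested genes were called. Eif2ak2 is itself interferon-induced and was highest, at 19.7 FPKM, in the same scrambled TGFb library that led the interferon-induced genes. Of 15 endoplasmic reticulum chaperones and targets of the other unfolded protein branches, 7 rose and 1 fell with TGFb after scrambled siRNA, led by Ern1 and Herpud1 at 0.47 each and Xbp1 at 0.42. In all, 53.3% of this list was called, against the same 45.5% of all tested genes.

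Neighbouring gene families were mixed. Beside them, 16.4% of all tested genes were called higher and 29.1% lower with TGFb after scrambled siRNA, 45.5% in all. Of 11 other cytosolic synthetase and scaffold genes, 4 were higher and 1 lower (median 0.11), which at 45.5% equals the share of all genes. Rars was at 0.33, Eef1e1 at 0.30 and Farsb at 0.26. Of 17 mitochondrial synthetases, 3 were higher and 3 lower (35.3% in all, median -0.04). Among them were Vars2 at -0.37, Fars2 at -0.26 and Nars2 at 0.26. Of 22 other amino acid enzymes and carriers tested, 5 were higher and 10 lower (68.2% in all, median -0.14). The largest of these changes were in Ass1, which joins citrulline and aspartate for arginine synthesis, at 2.31, Bcat1, the cytosolic branched-chain aminotransferase, at 0.94, and Slc7a7, an amino acid exchanger, at 0.82. Of 14 genes for amino acid sensing by mTORC1, none was called higher and 8 were lower (57.1% in all, median -0.19). Sesn3 at -1.06, Sesn1 at -0.69 and Flcn at -0.48 led them. Sesn2, the sestrin among the 42 genes, rose by 0.63 in the same samples.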

How the data were processed

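Per the file headers, the authors deposited 1 table of FPKM values with 2 decimals for all 12 libraries, identified by Ensembl gene. Per the submitters' processing notes, the tools included RSEM, Bowtie2 2.2.5, HISAT2 2.0.4 and DESeq2, of unstated role, and the build was mm10. RNA came from 1 of 2 kits and was kept at an integrity number of 6.0 or more, per the labels. Strand use and sequencing depth were not stated. FPKM is relative to library size, so abundant genes that change shift all others.

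Of 16290 lines, 555 without an identifier (1.30% to 1.46% of each FPKM total) and 15 repeats were left out. Symbols came from the mouse annotation, with 3 older symbols matched by hand. The 11208 genes that averaged 0.5 FPKM or more were put on the log2(FPKM + 1) scale and fitted in limma 3.58.1 (R 4.3.3). The model held 4 group means over 12 libraries, with a trend of variance on level and 8 residual plus 5 prior degrees of freedom, without a replicate block, and p-values were adjusted by the Benjamini-Hochberg method over all genes. The fit was tested on simulated data. Of simulated log2 changes of 0.5 it recovered 80.6% to 88.7% in comparisons between groups and 69.6% in the interaction. False calls made up 3.59% to 5.39% of all calls. Neither changes below 0.5 nor an outlying library were simulated. Fold changes on this scale understate low genes.

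The genes and lists were chosen with earlier results of these data known. All 42 could be named. Values in every sample were to be given for Atf4, the 10 called genes with the largest TGFb change after scrambled siRNA, called genes against the majority, the 5 smallest interaction p-values, genes called for the siRNA under vehicle, and Slc7a11, Slc7a5, Slc3a2 and Asns. Of other lists, up to 3 called genes per comparison were named. Alternatives covered the pseudocount (0.1 and 5), the filter (none, 2), scaling, the block, the groups fitted and each library left out.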

Additional observations from a re-analysis of the deposited data

Results flagged for a closer look

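In 16 genes the test of the difference itself, the interaction of siRNA and TGFb in limma, separated the TGFb response after Bmal1 siRNA from that after scrambled siRNA. The log2 difference between responses was -1.46 for Fgf21, -0.96 for Ddit4, -0.87 for Vldlr, -0.68 for Nupr1, -0.67 for Trib3, -0.42 for Cth and -0.37 for Chac1. It was -0.31 for Asns, -0.30 for Aldh18a1 and for Gars, -0.29 for Lars, -0.26 for Nars, -0.24 for Gpt2, -0.22 for Eprs and -0.20 for Yars. Cebpb went the other way, at 0.36. Among all tested genes 14.4% were called in this test. With 3 libraries a group, no test for a single outlying library was run.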

How the results depend on the processing

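No result changed direction while called, in any of the settings run. With TGFb, the counts of called genes stayed within 1.5 times the reported ones in every setting, at 37 to 40 after scrambled siRNA and 31 to 38 after Bmal1 siRNA when 1 library was left out. For Bmal1 siRNA under vehicle (1 call), leaving out 1 library gave 0 to 9 calls. Without a filter limma called 0, with 15 genes at an unadjusted p under 0.05, against 16 of 41 in the reported fit, where 21.7% of all tested genes passed at that level. Scaling to equal totals gave 2 calls, where 67 of all 11208 genes tested were called. Fitting only the groups compared gave 5, and leaving out both second TGFb libraries 7. For Bmal1 siRNA under TGFb (11 calls), leaving out 1 library gave 6 to 16 calls, medians of ratios 19, only the groups compared 6, and leaving out both second TGFb libraries 7. For the interaction (16 calls), leaving out 1 library gave 7 to 19. Apart from the rescaled fits, these counts stand without the share of all genes called in the same fit. Where a library left out gave 0 calls under vehicle, 12 to 16 genes had an unadjusted p under 0.05. The cause of these changes was not tested, and fits with a library left out also hold fewer samples.

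Replicate numbers are shared across groups. Same-numbered libraries deviated together with correlations from -0.149 to 0.475 over the 4 pairs of groups, not all over 0.1, so the numbers were not taken to pair the samples. With a replicate block the counts were 39 and 37 for TGFb, 7 for the siRNA under vehicle (6 higher and 1 lower), 13 under TGFb and 19 for the interaction. The share of all genes called with the block is not given here. The depth behind each FPKM value is unknown, which limits what can be said of Stc2, Slc7a11 and Cth, the genes with the lowest levels.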
